A study of Mus musculus with 6 samples.

Results

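The regulatory elements predicted for 9 transcription factors of oligodendrocyte differentiation were examined in mouse oligodendrocyte precursor cells (OPCs) with and without interferon-γ (IFN-γ). The factors were Nkx2-2, Nkx6-2, Myrf, Tcf7l2, Zfp488, St18, Zeb2, Nfia and Nfib, chosen by name, and each was a target gene in both conditions, out of 32049 target genes listed in at least 1 condition. The material was 6 H3K27ac-HiChIP libraries, 3 of control cells (Ctr-OPCs) and 3 of cells given 100 ng/mL IFN-γ (IFN-γ-OPCs) starting 24 h after passaging. All cells were cultured primary mOPCs of strain C57BL/6j and genotype Sox10-Cre/RCE, in which Cre under Sox10 control switches on a fluorescent reporter, and this label is the same for both conditions. By the methods the reporter line had a mixed C57BL/6xCD1 background and the reporter could be hemizygous or homozygous. By the study's methods the cells came from pup brains, were pooled over animals and grew in a medium with the mitogens bFGF and PDGF-AA, which keeps OPCs dividing, and replicates came from different litters. HiChIP captures ligated chromatin contacts of regions that carry a histone mark, here H3K27ac, the mark of active enhancers and promoters.

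OPCs leave the cell cycle and become myelinating oligodendrocytes under the control of a cascade of transcription factors. Olig2 and Sox10 hold the lineage identity, Nkx2-2 and the zinc finger proteins Zfp488 and Zeb2 favour exit from the precursor state, Tcf7l2 couples Wnt signalling to differentiation, and Myrf, a membrane-bound protein that cleaves itself to release a DNA-binding part, switches on myelin genes. Nfia and Nfib belong to the nuclear factor I family that opens the glial programme before this step. IFN-γ is a T cell cytokine that is known to disturb the differentiation of OPCs.

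The deposited values come from the activity-by-contact (ABC) model, with 1 table for the pooled libraries of a condition. Activity is the combined ATAC-seq and H3K27ac signal of an element, and contact is the scaled HiChIP contact between the 5 kb bin of the element and the 5 kb bin of the gene start, to which the model adds a small pseudocount before multiplying. Ratios of contact between conditions include that pseudocount. The ABC score is the share of activity times contact that an element holds in the total of its gene, and that total, recovered here by dividing the product by the score, is called the gene total. A pair of an element and a gene was listed from a score of 0.02 upward, and a connection is a pair with a score above 0.05, the cut-off of the study's methods. Since the tables used here hold no replicate values, a difference was called when it passed 1.5-fold, no value has an error or a p-value, and the depth behind each value is unknown.

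The sequences of 10 windows that carried the connections of the factors are given here, each the central 300 bp of an element on the plus strand of mm10, except for a promoter stretch of Nkx2-2. Capitals mark matches on either strand to short motifs. These were TTCNNNGAA (the gamma-activated sequence, GAS), GAAANNGAA (an IRF core), ACAAAG or ACAATG (SOX), TTGGCA (a nuclear factor I site), CAGCTG or CATATG (E-boxes of basic helix-loop-helix factors), CAGGTA or CAGGTG (boxes bound by ZEB proteins), CTTTGATG or CTTTGATC (TCF), CACTTAA or CACTTGA (NKX2) and TGACTCA or TGAGTCA (AP-1). No base of the 300 bp windows lay in matches of more than 1 motif.
The intronic element of Nkx2-2, with the highest score in Ctr-OPCs, is shown at chr2:147180740-147181039.
Nkx2-2 intron: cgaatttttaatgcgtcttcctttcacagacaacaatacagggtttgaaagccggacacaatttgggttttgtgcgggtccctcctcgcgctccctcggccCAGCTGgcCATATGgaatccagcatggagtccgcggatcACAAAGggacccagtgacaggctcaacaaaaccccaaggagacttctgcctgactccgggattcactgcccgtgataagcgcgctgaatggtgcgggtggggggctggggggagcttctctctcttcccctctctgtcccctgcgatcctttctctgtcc
The promoter stretch inside the other connected element of Nkx2-2 is the RefSeq promoter (GRCm38.p6, the assembly of mm10) on the minus strand, chr2:147186456-147186652. It was cut to the bases outside the annotated exons of Nkx2-2, and exons of other genes were not checked.
Nkx2-2 promoter: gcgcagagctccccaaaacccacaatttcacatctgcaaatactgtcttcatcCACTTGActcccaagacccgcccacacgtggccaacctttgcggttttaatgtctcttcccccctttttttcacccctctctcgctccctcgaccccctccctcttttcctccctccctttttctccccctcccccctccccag
The intronic element of Zfp488, which had the highest score of any factor's element, lies at chr14:33974846-33975145.
Zfp488 intron: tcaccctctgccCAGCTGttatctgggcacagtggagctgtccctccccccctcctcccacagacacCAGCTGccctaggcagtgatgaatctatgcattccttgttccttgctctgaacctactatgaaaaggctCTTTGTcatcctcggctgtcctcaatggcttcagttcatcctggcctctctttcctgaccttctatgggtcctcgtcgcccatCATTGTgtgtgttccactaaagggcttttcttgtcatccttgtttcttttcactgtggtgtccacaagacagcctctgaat
For St18 there are 3 windows, the upstream element connected in both conditions (chr1:6483483-6483782), the distal element connected in IFN-γ-OPCs (chr1:6406407-6406706) and the intronic element connected in Ctr-OPCs (chr1:6497195-6497494).
St18 upstream: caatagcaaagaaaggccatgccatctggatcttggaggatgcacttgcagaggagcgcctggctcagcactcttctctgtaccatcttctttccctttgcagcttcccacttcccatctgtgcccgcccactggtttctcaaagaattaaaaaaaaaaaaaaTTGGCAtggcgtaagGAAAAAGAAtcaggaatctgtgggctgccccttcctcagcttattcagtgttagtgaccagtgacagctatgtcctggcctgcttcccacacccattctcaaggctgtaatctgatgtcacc
St18 distal: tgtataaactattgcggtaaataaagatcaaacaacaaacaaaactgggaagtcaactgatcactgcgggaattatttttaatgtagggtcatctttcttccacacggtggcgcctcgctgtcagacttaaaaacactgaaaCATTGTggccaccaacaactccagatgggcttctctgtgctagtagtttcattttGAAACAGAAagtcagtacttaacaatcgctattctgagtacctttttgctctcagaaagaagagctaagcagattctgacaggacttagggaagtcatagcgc
St18 intron: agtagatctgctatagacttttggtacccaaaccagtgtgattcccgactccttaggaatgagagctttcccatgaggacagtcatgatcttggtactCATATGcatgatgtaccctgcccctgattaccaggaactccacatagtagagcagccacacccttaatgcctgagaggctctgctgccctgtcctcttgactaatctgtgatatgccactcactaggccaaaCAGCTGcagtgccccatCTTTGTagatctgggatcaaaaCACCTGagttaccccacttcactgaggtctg
Zeb2 had a different connected element in each condition, chr2:45115996-45116295 in Ctr-OPCs against chr2:45108912-45109211 in IFN-γ-OPCs.
Zeb2 Ctr-OPCs: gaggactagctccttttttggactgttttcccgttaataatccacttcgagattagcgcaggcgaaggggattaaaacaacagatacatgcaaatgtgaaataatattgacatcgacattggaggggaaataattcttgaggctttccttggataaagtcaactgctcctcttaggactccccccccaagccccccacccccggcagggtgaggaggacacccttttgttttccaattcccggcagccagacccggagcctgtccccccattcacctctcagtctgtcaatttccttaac
Zeb2 IFN-γ-OPCs: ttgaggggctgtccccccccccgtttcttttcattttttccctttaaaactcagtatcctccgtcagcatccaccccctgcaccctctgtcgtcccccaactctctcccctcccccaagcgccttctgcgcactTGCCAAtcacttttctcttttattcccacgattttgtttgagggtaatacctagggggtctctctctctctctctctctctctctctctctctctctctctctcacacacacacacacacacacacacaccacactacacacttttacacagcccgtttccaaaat
Nfib had 2 connected elements, both in IFN-γ-OPCs, chr4:82690338-82690637 and chr4:82704697-82704996.
Nfib intron: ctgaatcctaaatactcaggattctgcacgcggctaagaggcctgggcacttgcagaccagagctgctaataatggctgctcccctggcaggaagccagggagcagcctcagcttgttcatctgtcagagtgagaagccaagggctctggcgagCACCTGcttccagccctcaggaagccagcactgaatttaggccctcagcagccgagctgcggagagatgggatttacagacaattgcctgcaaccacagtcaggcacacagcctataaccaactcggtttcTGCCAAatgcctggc
Nfib near the start: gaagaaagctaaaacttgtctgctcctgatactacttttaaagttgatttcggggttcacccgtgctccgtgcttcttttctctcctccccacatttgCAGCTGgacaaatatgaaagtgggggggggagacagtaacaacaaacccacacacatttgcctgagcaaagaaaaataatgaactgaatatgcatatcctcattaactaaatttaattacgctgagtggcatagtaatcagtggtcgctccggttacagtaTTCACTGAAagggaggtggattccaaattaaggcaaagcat
The central windows of the connected elements of Myrf and of the Nkx2-2 promoter were left out because they lie in untranslated regions. The St18 intronic window and both Nfib windows were added after their values had been seen.

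Among the windows, the upstream and the distal element of St18 each held 1 IRF core, a match present in 9.58% of the central 300 bp of all 68771 listed elements. The Nfib element near the gene start held 1 GAS match, which 8.89% of all central windows held. E-boxes, present at least once in 29.6% of all central windows, numbered 2 each in the windows of Zfp488, the Nkx2-2 intron and the St18 intron and 1 in that of Nfib near the start. SOX cores, present at least once in 39.1%, numbered 2 in the Zfp488 window and 1 each in the Nkx2-2 intron, the St18 intron and the distal element of St18. The intronic windows of St18 and Nfib each held 1 ZEB box, present in 27.6%. The promoter stretch of Nkx2-2 held 1 NKX2 match, the motif of the factor's own family, which occurs in 3.96% of 32851 RefSeq promoter entries over the same 197 bases. A nuclear factor I site lay in the windows of the Nfib intronic element, the St18 upstream element and the Zeb2 element of IFN-γ-OPCs, against 20.0% of all central windows.

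In Ctr-OPCs the factors had 30 listed pairs of 66637, and in IFN-γ-OPCs 32 of 71478. Most elements were close, with a median distance from the gene start of 11.3 kb in Ctr-OPCs against 13.9 kb in IFN-γ-OPCs, against 15.1 kb and 15.8 kb over all pairs. Counting each table's intervals separately, 31 of 62 elements lay within the gene they were assigned to, 16 within another gene only and 15 between genes. An annotated start of the target gene fell inside 3 of the 62, all in Nkx2-2 or Tcf7l2. Distant pairs beyond 1 Mb numbered 1 in Ctr-OPCs against 3 in IFN-γ-OPCs and belonged to St18 and Nfib.

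The number of connections was 7 in Ctr-OPCs against 8 in IFN-γ-OPCs. It was higher in IFN-γ-OPCs for Nfib, from 0 to 2, and lower for Myrf, from 1 to 0. Over all 20321 genes listed in both conditions, 16.5% had more connections in IFN-γ-OPCs and 14.3% had fewer, so 1 of 9 in each direction was near the background. Nkx2-2 and St18 had 2 connections in both conditions, Zfp488 and Zeb2 had 1 in both, and Nkx6-2, Tcf7l2 and Nfia had none in either. Of the 7 connections in Ctr-OPCs, 4 had an overlapping connection of the same gene in IFN-γ-OPCs, namely both of Nkx2-2 and 1 each of Zfp488 and St18.

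**Figure D1:**
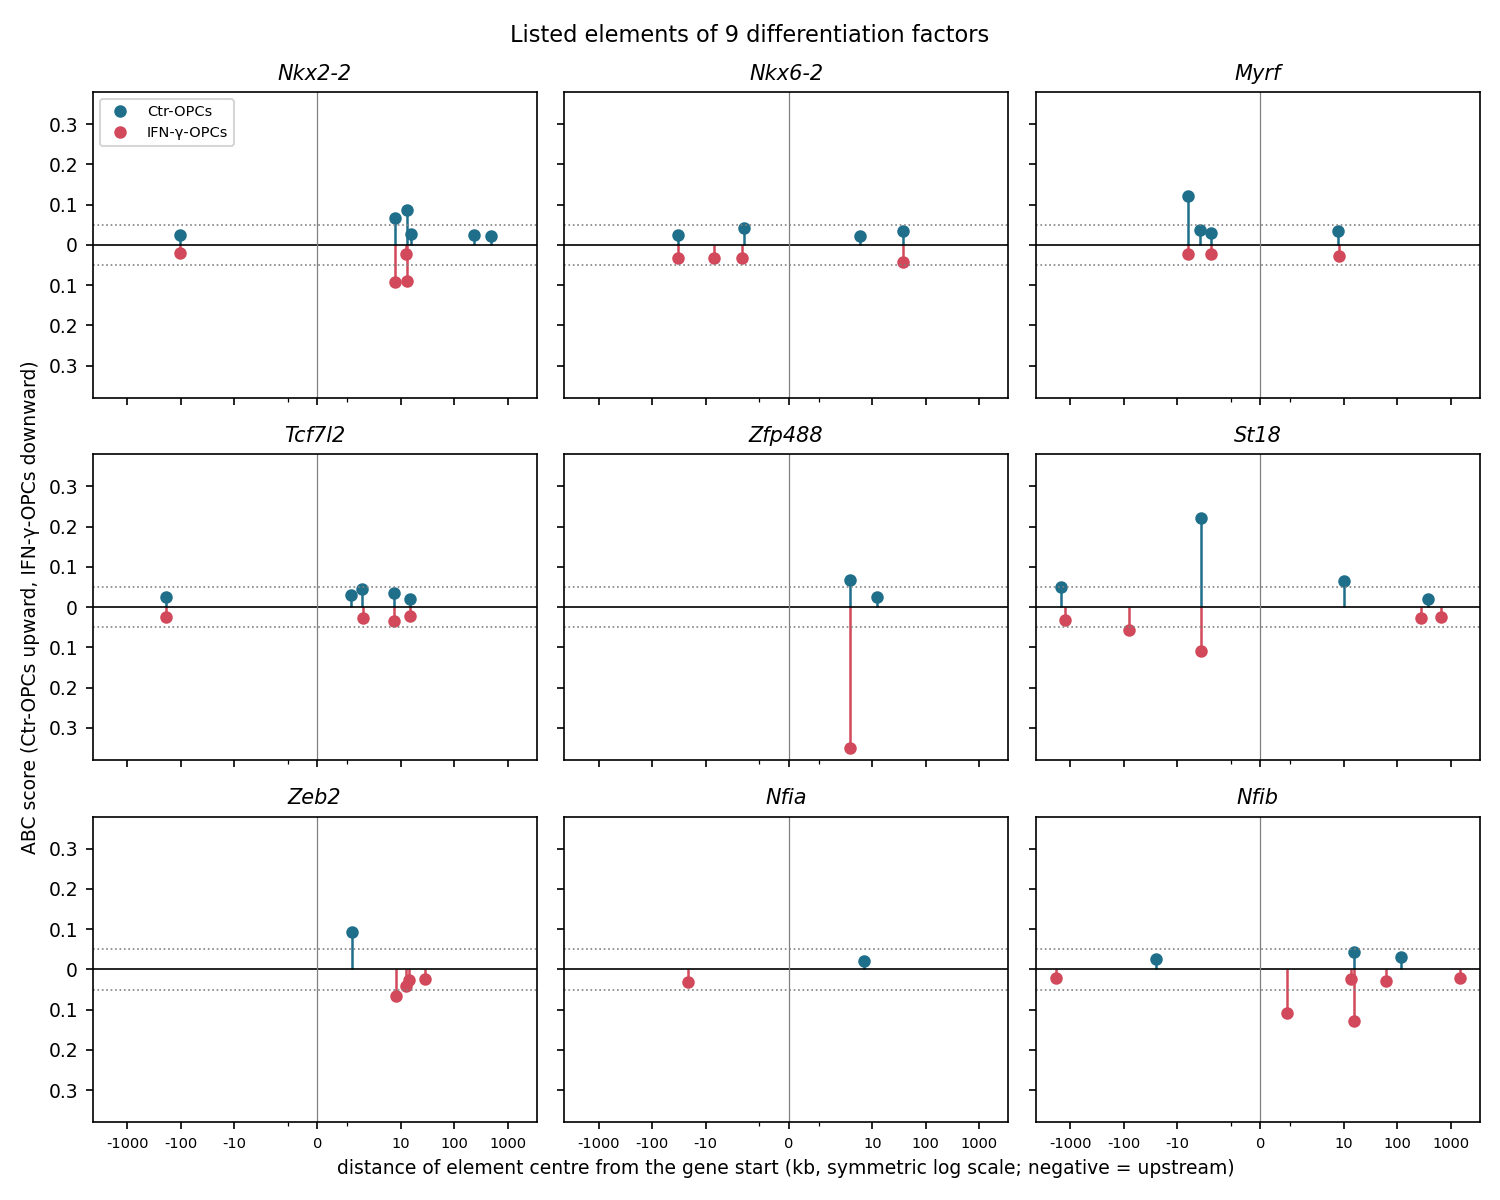
Each panel shows 1 gene, with the distance of each listed element centre from the gene start on the horizontal axis (kb, symmetric log scale, negative upstream) and the ABC score on the vertical axis, Ctr-OPCs upward and IFN-γ-OPCs downward. Dotted lines mark the score of 0.05, and the Zfp488 element reaches 0.349 in IFN-γ-OPCs against 0.0682 in Ctr-OPCs.

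The gene total was higher in IFN-γ-OPCs for 5 factors and lower for 4, of which Nfia turned higher when the activity of each table was divided by its median, with a median log2 ratio of 0.036 against -0.066 over all genes (SD over genes 0.19). Only Zfp488 passed 1.5-fold, with a log2 ratio of 0.68, while 0.615% of all genes passed it upward and 0.118% downward. The Zfp488 call rests on 1 element whose centre lay in different 5 kb bins in the tables, and with its contact held at the Ctr-OPC value no factor passed. Over listed pairs alone 5 factors passed and Nkx2-2, Nkx6-2, St18 and Nfia changed direction. Nfib followed at 0.32, above 95.6% of all genes, and Myrf was lowest at -0.27, with 6.96% of genes below it. The other 6 lay between -0.12 and 0.17.

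**Figure D2:**
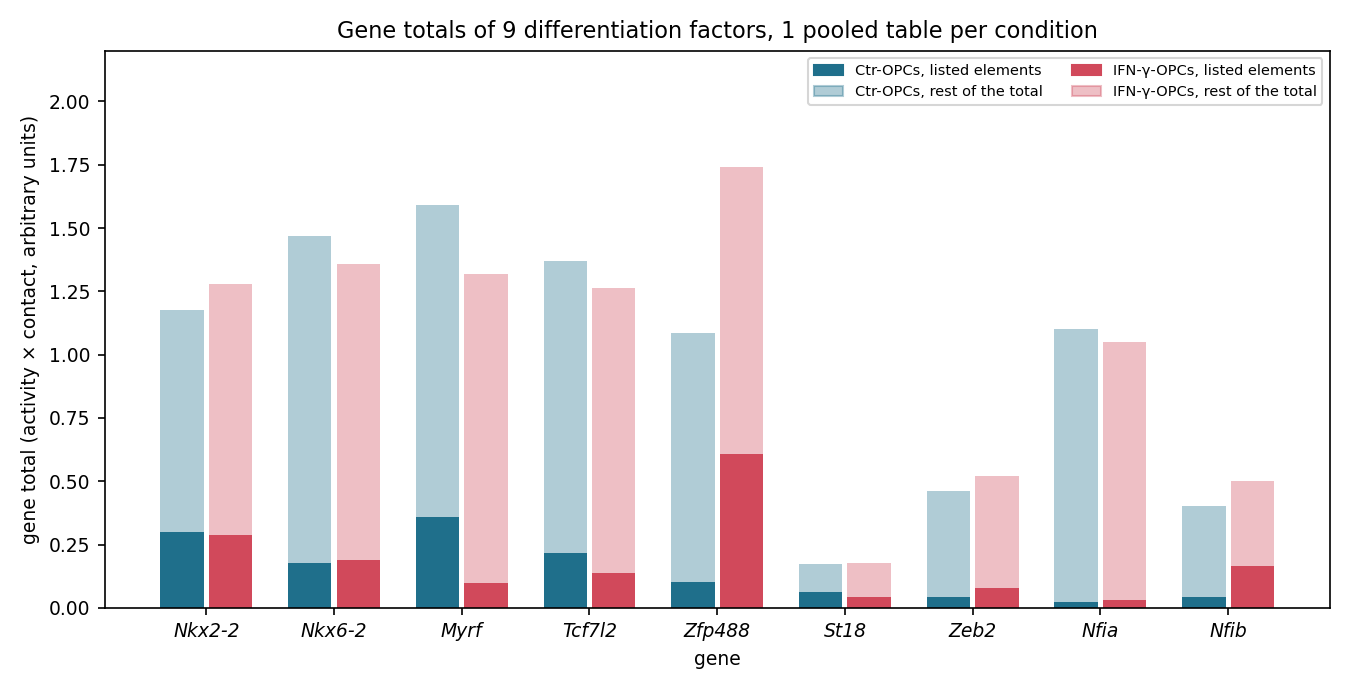
Bars give the gene total of each factor (activity times contact, arbitrary units) in Ctr-OPCs and IFN-γ-OPCs, 1 pooled value each. The solid part comes from listed elements and the pale part from the rest, whose elements are not listed. For Nkx2-2 the solid part includes an element over an annotated start and the RefSeq promoter. Zfp488 goes from 1.08 to 1.74, mostly through its solid part, and the solid part of Myrf goes from 0.359 to 0.0967.

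Of the pairs listed for these genes, 16 could be matched between conditions by overlapping elements of the same gene. That is 16 of 30 pairs from the Ctr-OPC side, where 45.8% of all pairs had such a counterpart, and 16 of 32 from the IFN-γ-OPC side, where 42.8% had one. Activity passed 1.5-fold upward in 1 and downward in 2 of them, against 7.48% upward and 11% downward of 29858 matched pairs of all genes. Contact passed it upward in 2 and downward in 2, against 12% and 8.33%, and the score upward in 2 and downward in 3, against 14.9% and 13.6%. The median log2 ratio of the member pairs was -0.054 for activity and 0.061 for contact, and over all matched pairs it was -0.092 and 0.053. The largest contact differences belonged to Zfp488, the only pair in different bins, and Nfib, and the largest activity difference to a Myrf pair of 2984 bp against 500 bp, which is not matched at a reciprocal overlap of 50%.

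**Figure D3:**
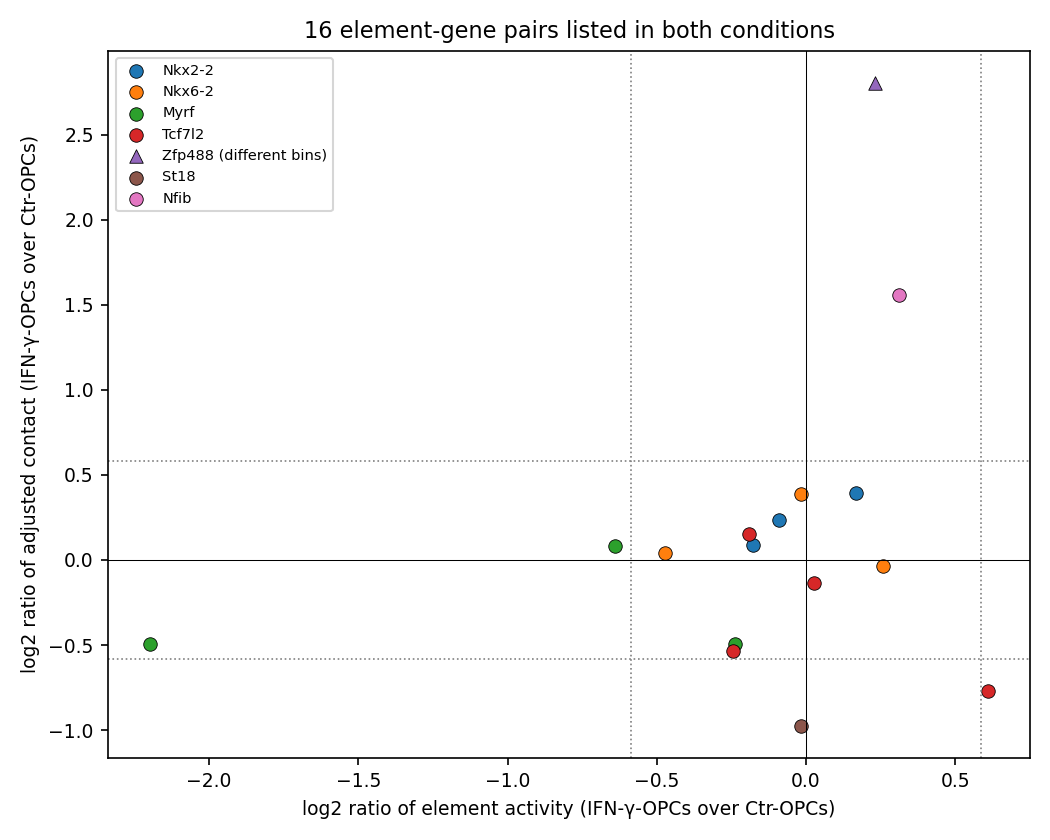
Each point is 1 of the 16 matched pairs, with the log2 ratio of element activity on the horizontal axis and that of adjusted contact on the vertical axis, IFN-γ-OPCs over Ctr-OPCs, coloured by gene, and dotted lines mark 1.5-fold. Zfp488 (triangle, element centres in different 5 kb bins) sits at 2.81 and Nfib at 1.56 on the contact axis, and 1 Myrf pair at -2.20 on the activity axis.

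Nkx2-2, a homeodomain repressor that OPCs switch on as they start to differentiate, had the same 2 elements connected in both conditions, the intronic one with a nearly level score and the other with a higher score in IFN-γ-OPCs. The gene lies on the minus strand at chr2:147177546-147194243, and the model measured distance from the far start at its upper end. The intronic element (chr2:147180640-147181139 in Ctr-OPCs), 13.4 kb inside the gene, had an activity of 4.88 in Ctr-OPCs against 4.58 in IFN-γ-OPCs, higher than 99% of listed elements in each, and its score was 0.0875 and 0.0889. The other element (chr2:147185686-147186851 in Ctr-OPCs) covers an annotated inner start, the RefSeq promoter, untranslated and coding exon sequence. Its activity was 3.18 and 3.57, its contact 0.0239 and 0.0317, and its score 0.0679 and 0.0922, which made it the highest of Nkx2-2 in IFN-γ-OPCs. Both elements served several genes. The intronic one scored 0.121 with the neighbour 6430503K07Rik and 0.119 with the antisense gene Nkx2-2os in Ctr-OPCs, and the promoter element scored 0.0886 and 0.0823 with them in IFN-γ-OPCs. Listed only in Ctr-OPCs were 3 weaker pairs with scores of 0.0210, 0.0251 and 0.0282, of which the element 483 kb away had the highest activity of any factor's element, 5.92. In IFN-γ-OPCs those 3 intervals overlapped elements listed for other genes, with activities of 3.87, 2.34 and 1.12. The last 2 of them were 500 bp long, against 942 bp and 975 bp in Ctr-OPCs. The gene total was 1.18 in Ctr-OPCs against 1.28 in IFN-γ-OPCs.

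Nkx6-2, the homeodomain factor of later oligodendrocytes, had 4 pairs in each condition and no connection. Its promoter activity quantile, the rank of its promoter among genes, was 0.755 in Ctr-OPCs against 0.460 in IFN-γ-OPCs. That difference of -0.30 was exceeded downward by 0.130% of the 20321 genes listed in both conditions, whose SD was 0.0787. No gene with a quantile under 0.4 is listed, so genes that fell below 0.4 are missing from that share. Of the 3 matched elements of Nkx6-2 none passed 1.5-fold in activity, contact or score. An element in an intron of Inpp5a (chr7:139544881-139545380 in IFN-γ-OPCs), 37.6 kb away, had an activity of 3.98 in Ctr-OPCs against 4.76 in IFN-γ-OPCs and a contact of 0.0111 and 0.0108, and a score of 0.0334 and 0.0422. An element in a coding exon of Cfap46, 33.2 kb away, had scores of 0.0236 and 0.0329. The intergenic element 1.95 kb upstream (chr7:139584341-139585147 in Ctr-OPCs) had an activity of 0.861 and 0.621, a contact of 0.0702 and 0.0722, and a score of 0.0419 and 0.0336. The gene total was 1.47 and 1.36.

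Myrf, whose product switches on the myelin genes, was the only factor that had a connection in Ctr-OPCs against none in IFN-γ-OPCs. The connected element, chr19:10245487-10248470, is 2984 bp long, lies 6.23 kb from the start and covers coding and untranslated sequence at the end of Dagla, a diacylglycerol lipase gene next to Myrf. Its activity was 2.80, its contact 0.0681 and its score 0.122. In IFN-γ-OPCs the listed interval there was 500 bp long, chr19:10246909-10247408, with an activity of 0.611, a contact of 0.0479 and a score of 0.0227. The intervals differ in length, and the IFN-γ-OPC interval lies wholly inside the longer one. Activity at an intronic element 7.94 kb into Myrf was 1.76 in Ctr-OPCs against 1.13 in IFN-γ-OPCs, past 1.5-fold as deposited but not when activity was divided by the median of its table (log2 ratio -0.53), with contacts of 0.0301 and 0.0319 and scores of 0.0346 and 0.0283. An element 2.39 kb upstream had activities of 0.704 and 0.597 and scores of 0.0307 and 0.0222. All 3 matched pairs of Myrf had lower activity as deposited and a lower score in IFN-γ-OPCs. For the connected element this sets 2984 bp against 500 bp, and the part of interval length in its activity difference was not tested. A further element, chr19:10244173-10244672, with an activity of 0.875 and a score of 0.0382, was listed in Ctr-OPCs alone. Listed elements held 22.6% of the gene total in Ctr-OPCs against 7.33% in IFN-γ-OPCs, while the rest of the total was 1.23 and 1.22 and the promoter activity quantile 0.784 and 0.790.

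Zfp488, a zinc finger repressor that works with Olig2 to promote differentiation, had the largest difference in gene total, 1.08 in Ctr-OPCs against 1.74 in IFN-γ-OPCs. The rank of that ratio was above 99.7% of all genes. Listed elements accounted for 0.506 of the difference of 0.655. The only one listed in both tables was an intronic element 3.77 kb from the start, chr14:33974746-33975245 in Ctr-OPCs against chr14:33974753-33975252 in IFN-γ-OPCs. Its activity was 3.04 and 3.57, its contact 0.0231 and 0.169, and its score 0.0682 and 0.349, and most of the difference lay in contact, which was 6.99-fold higher with the pseudocount. Contact is 1 value per pair of bins, and the centre of the element moved by 7 bp between the tables, across a bin edge into the bin of the gene start. No other matched pair of the 9 factors changed bin, and 1.89% of all matched pairs did. Over all genes contact passed 1.5-fold in either direction in 39.1% of the pairs that changed bin and in 20% of those that did not. Of the 115 pairs over all genes that moved from the bin beside the start into the bin of the start, 16 passed 1.5-fold upward in contact, the median log2 ratio was 0.27, and Zfp488 was the highest at 2.81, ahead of 1.21. Among pairs inside the bin of the start in IFN-γ-OPCs, whose median contact was 0.0499, the Zfp488 contact stood above 99.9%. With the contact held at its Ctr-OPC value, a calculation added after the data were seen, the log2 ratio of the gene total would be 0.17 and the score 0.0712. A shift of bin and a difference in contact cannot be told apart for this pair. A second element, 12.4 kb from the start with a score of 0.0251, was listed in Ctr-OPCs alone. The highest other target of the intronic element was Rbp3 at 0.0396 in Ctr-OPCs against Gm5460 at 0.0432 in IFN-γ-OPCs.

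St18, a zinc finger protein of the Myt1 family, exchanged 1 of its 2 connections. The upstream element chr1:6483383-6483882, between genes and 3.60 kb from the start, had an activity of 1.28 in Ctr-OPCs against 1.27 in IFN-γ-OPCs, a contact of 0.0287 and 0.0140 within the same bins, and a score of 0.223 and 0.109. Activity and gene total were nearly level, so the score followed contact, and the score computed by the authors from distance in place of contact was 0.459 and 0.470. An intronic element 10.1 kb from the start (chr1:6497095-6497594) had a score of 0.0648 in Ctr-OPCs, with an activity of 0.367 and a contact of 0.0291, and no overlapping element was listed in IFN-γ-OPCs. The distal element chr1:6406307-6406806, 80.7 kb upstream, had a score of 0.0559 in IFN-γ-OPCs, where its activity was 1.42 and its contact 0.00570. In Ctr-OPCs it was listed for other genes only, with an activity of 0.574. St18 also held pairs at 1464 kb in Ctr-OPCs, score 0.0494, and at 1254 kb in IFN-γ-OPCs, score 0.0328, with contacts 1.75 and 4.03 times the value expected from distance. The gene total, 0.172 and 0.176, was the smallest of the 9, and the promoter activity quantile was 0.664 and 0.567.

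Zeb2, a zinc finger protein that blocks BMP signalling in the lineage, had 1 connection in each condition, and they did not overlap. In Ctr-OPCs the only listed pair was an intronic element 1.25 kb from the start, chr2:45115723-45116568, with an activity of 1.74, a contact of 0.0232 and a score of 0.0921. In IFN-γ-OPCs no overlapping element was listed, and 4 elements further inside the gene were, from 8.33 kb to 28.2 kb from the start. The connected one, chr2:45108608-45109516, had an activity of 3.16, a contact of 0.00966 and a score of 0.0662, and it covers a non-coding exon of Zeb2. The other 3 had scores of 0.0401, 0.0252 and 0.0225, and their intervals were listed for other genes in Ctr-OPCs with activities of 1.33, 1.83 and 0.644 against 1.92, 2.01 and 1.30 in IFN-γ-OPCs. The intervals in Ctr-OPCs were 500 bp long, and the first and last of those in IFN-γ-OPCs were 890 bp and 995 bp. The connected elements shared the opposite-strand gene Zeb2os, which scored 0.0661 in Ctr-OPCs against 0.118 in IFN-γ-OPCs. The gene total was 0.462 and 0.520 and the promoter activity quantile 0.853 in both.

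Tcf7l2, the partner of β-catenin in Wnt signalling, had 5 pairs in Ctr-OPCs against 4 in IFN-γ-OPCs, none a connection. Its highest pair in Ctr-OPCs was an intronic element 1.90 kb from the start, chr19:55743470-55743969, with a score of 0.0443 against 0.0280 in IFN-γ-OPCs. Its activity was 1.64 and 1.39 and its contact 0.0357 and 0.0243. The next intronic element, 7.55 kb from the start (chr19:55748476-55750424 in IFN-γ-OPCs), had a higher activity in IFN-γ-OPCs, 1.99 against 1.31 in Ctr-OPCs, and a lower contact, 0.0204 against 0.0357. Activity and contact both passed 1.5-fold, in opposite directions, while the interval was 1949 bp long against 1328 bp, and the score was 0.0352 and 0.0341. An element in an intron of Vti1a, 185 kb upstream, had an activity of 4.57 and 4.66 and a score of 0.0255 and 0.0257. An element listed in Ctr-OPCs only, with a score of 0.0309, covers an annotated inner start of Tcf7l2 and coding sequence. The gene total was 1.37 and 1.26, and the promoter activity quantile 0.875 and 0.938.

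Nfia and Nfib, which act earlier in gliogenesis, differed from each other. Nfia had 1 pair in each condition, in different places. In Ctr-OPCs it was an intronic element 7.05 kb from the start, chr4:97779377-97780196, with an activity of 1.16, a contact of 0.0183 and a score of 0.0207. In IFN-γ-OPCs it was an element in an intron of E130114P18Rik, 21.1 kb from the start, chr4:97751160-97752169, with an activity of 3.73, a contact of 0.00738 and a score of 0.0306. In Ctr-OPCs this interval overlapped a shorter one, chr4:97751611-97752110, listed for another gene only, with an activity of 1.54. For the Ctr-OPC element of Nfia no overlapping element was listed in IFN-γ-OPCs. The listed elements of Nfia held 2.07% and 3.06% of a total of 1.10 and 1.05. Nfib had 3 pairs in Ctr-OPCs against 6 in IFN-γ-OPCs. Its intronic element 15.3 kb from the start, chr4:82690241-82690740 in Ctr-OPCs, had an activity of 1.30 and 1.62, a contact of 0.0124 and 0.0387 within the same bins, and a score of 0.0442 and 0.129. The second connection in IFN-γ-OPCs, chr4:82704453-82705241, lay 0.904 kb from the start with an activity of 1.14, a contact of 0.0464 and a score of 0.108, and no overlapping element was listed in Ctr-OPCs. Listed elements held 10.2% of the gene total in Ctr-OPCs against 33.1% in IFN-γ-OPCs, and the rest of the total was 0.360 and 0.335. Its pairs at 1453 kb and 1840 kb in IFN-γ-OPCs had scores of 0.0202 each, with contacts 9.45 and 13.3 times the value expected from distance. The intronic element was shared with Gm11269, which scored 0.0575 and 0.125. The gene total was 0.401 and 0.501, and the promoter activity quantile was lower in IFN-γ-OPCs, 0.624 against 0.704 in Ctr-OPCs.

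The 50 related genes comprised 13 family members of the 9 factors and 37 other regulators of the lineage. Of these, 42 were listed in both conditions, 13 with a higher and 29 with a lower gene total in IFN-γ-OPCs, and none passed 1.5-fold. With activity divided by the median of its table the split was 25 and 17. Their median log2 ratio was -0.069, beside -0.066 over all genes. The highest were Zfp24 (0.21), Sox11 (0.20) and Zfp536 (0.15), and the lowest Sox9 (-0.35), Tcf3 (-0.30) and Hes5 (-0.30). The 42 genes had 39 connections in each condition, with more in IFN-γ-OPCs for 9 genes (21.4%) and fewer for 9, beside 16.5% and 14.3% of all genes. Among the family members, Myt1 had 3 connections in Ctr-OPCs against 1 in IFN-γ-OPCs, Nkx2-4 2 and 1, and Nfic 1 and 0. Myrfl had 0 and 2, Myt1l 1 and 2, and Nkx6-1, Tcf7 and Tcf7l1 each 0 and 1. Nkx2-9 and Lef1 were listed in neither condition.

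**Figure D4:**
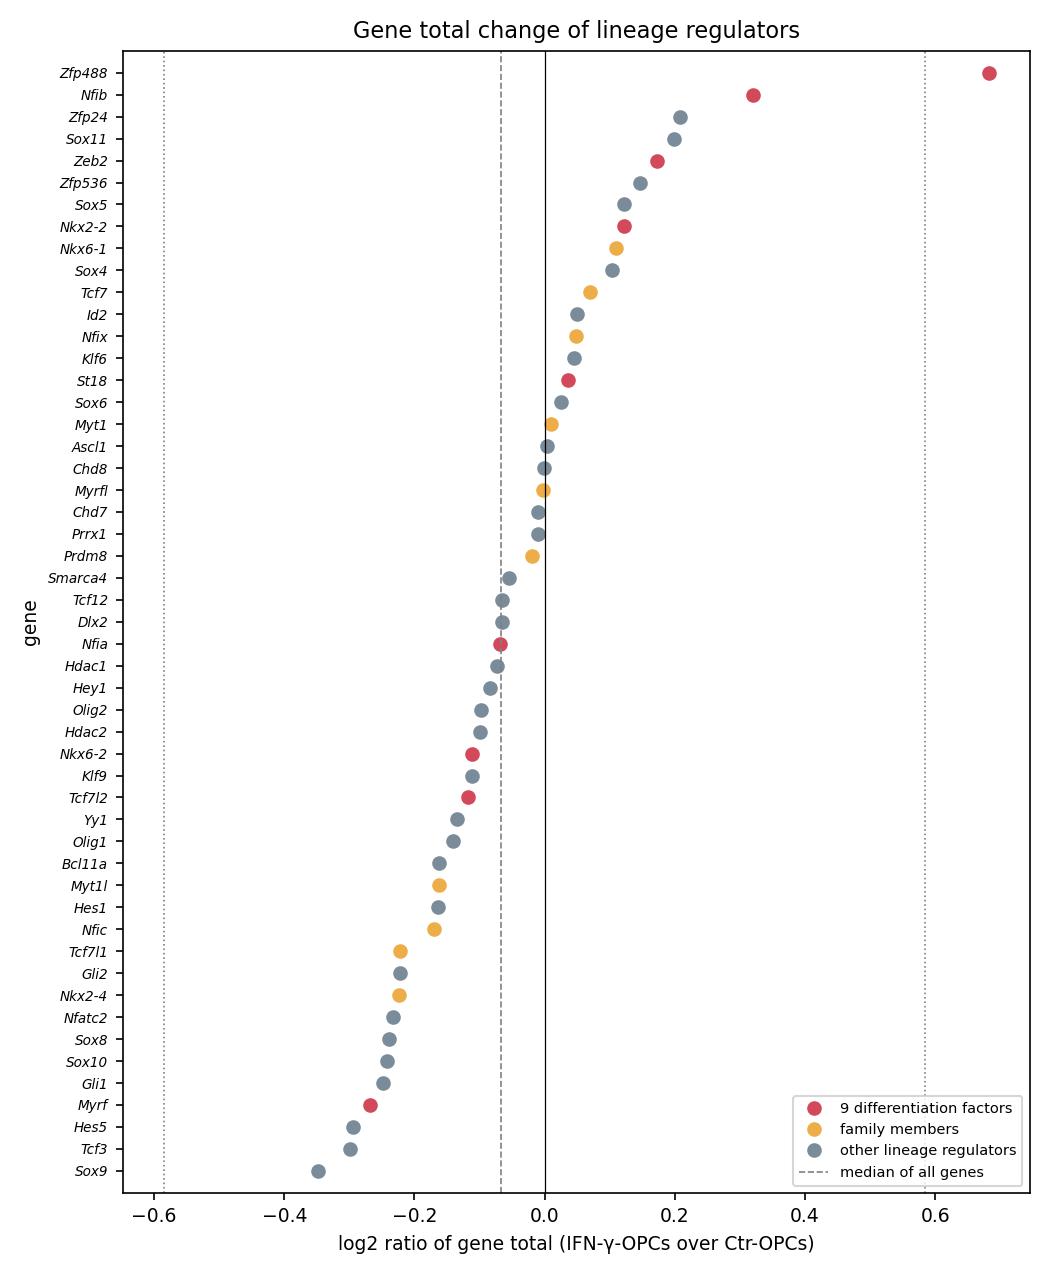
Points give the log2 ratio of the gene total, IFN-γ-OPCs over Ctr-OPCs, for the 9 factors and for 42 related genes, ordered by value, with the median of all genes dashed and 1.5-fold dotted. Zfp488 (0.68) and Nfib (0.32) stand above all related genes, and Sox9 (-0.35) is lowest.

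Markers of the labelled cell type were present in the tables. All 6 OPC markers were target genes in both conditions, with promoter activity quantiles from 0.851 to 0.995 in Ctr-OPCs and from 0.815 to 0.994 in IFN-γ-OPCs. Of 6 microglia markers, 2 were listed in Ctr-OPCs against 4 in IFN-γ-OPCs, with no connection in either, and Itgam and C1qa were in neither. Their quantiles reached 0.782 and 0.825 (P2ry12), the latter within the range of the OPC markers of that condition. Of 5 astrocyte markers 4 were listed in each condition, with 4 and 6 connections and quantiles up to 0.799 and 0.783. All 5 neuron markers were listed in both, with 0 and 1 connections, and their quantiles reached 0.870 and 0.868 (Tubb3), within the range of the OPC markers. Among markers of mature oligodendrocytes, Mog, Mobp, Cnp and Opalin were listed in both conditions and Mag in IFN-γ-OPCs alone. Mog had 1 connection in both conditions, and the other genes named had none. The part of any other cell type in the values of the 9 factors was not tested.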

How the data were processed

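The series measured H3K27ac-HiChIP in 6 mouse OPC libraries, 3 per condition by the treatment label. By the methods the authors aligned reads to mm10 and removed duplicates with HiC-Pro, then ran the ABC model with default parameters on ATAC-seq and H3K27ac CUT&RUN, giving 1 table per condition; peaks of both inputs were called with MACS2, and the ABC release and read depth are not given in the sources used here. Activity was deposited as a signal, whose scaling between conditions is not stated. Contact and its product with activity were deposited as scores of the ABC model. ABC scores were deposited by the authors as fractions, promoter activity quantiles as a rank score from 0 to 1, and distance in base pairs. The deposited tables hold no element of the promoter class (an element over an annotated start can still be of another class), no pair nearer than 750 bp and no gene with a quantile under 0.4, so an element can be missing for any of these reasons.

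Members, gene lists and motifs were chosen with earlier results of these data known. Genes were named through GENCODE M21. Elements were matched within a gene by mutual best overlap of at least 1 bp (pandas 2.3.3). Sequences came from GRCm38.p6 (pysam 0.24.0), with 0 elements beyond its chromosome ends. RefSeq promoter entries existed for 6 members. Described in full were the highest-scoring pair of each member and condition and each connection found in 1 condition. Matching and totals were tested on simulated data. 1 marker of mature oligodendrocytes is not reported here. Alternatives covered the score cut-off, overlap rule, activity scaling, contact and total.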

Additional observations from a re-analysis of the deposited data

How the results depend on the processing

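No paired analysis was possible because the libraries of a condition were pooled into 1 table, which also leaves no library to leave out. Connections of the 9 factors, 7 and 8 in control and treated cells, came to 30 and 32 without a cut-off above the deposited one, to 2 and 4 past 0.1, to 11 and 12 with the score computed from distance, and to 7 and 8 with the same number of top-scoring pairs from both tables. Shared connections, 4, were 4 at a reciprocal overlap of 50%, 3 by centres in the same 5 kb bin and 5 where the counterpart only had to be listed. Members with a gene total past 1.5-fold, 1, were 5 when the total was cut to listed pairs (Zfp488, Nfib at 2.01, Zeb2 at 0.91, Tcf7l2 at -0.63 and Myrf at -1.89), where Nkx2-2 (-0.050), Nkx6-2 (0.11), St18 (-0.48) and Nfia (0.50) changed direction, and 0 with the Zfp488 contact at its Ctr-OPC value, chosen after seeing the data. The share of all genes past 1.5-fold over listed pairs alone was not computed. The median activity of a table differed by -0.11 on the log2 scale between tables. Dividing activity by that median moved every activity and total ratio up by that amount. The median of all genes then was 0.042, the median of the 9 factors 0.14 and that of the related genes 0.039, with 25 higher and 17 lower in place of 13 and 29. Nfia changed direction under it, at 0.039. The median activity ratio of matched pairs was 0.054 under it. Pairs with activity past 1.5-fold downward, 2, both of Myrf, were 1 under this scaling, where the intronic pair drops out, 1 at the reciprocal overlap and 5 when matched with any listed element. Pairs with contact past 1.5-fold upward, 2, were 1 among pairs in the same bins, where the Zfp488 pair drops out. Of 131 recomputed values, 93 stayed within the tolerance set, which was 1.5 times for counts, the same sign for differences in connections, and the same sign and side of 1.5-fold for log2 ratios, and apart from the constructions named here the cause of a difference was not tested. Without replicates or depth, small differences cannot be told from counting error.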

Other observations

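The 39 elements of the 9 factors that were 500 bp long were set beside all 38918 listed elements of that length. A nuclear factor I site lay in 48.7% of the member elements and in 30.8% of all, an E-box in 53.8% and 43.6%, and a ZEB box in 46.2% and 37.4%. GAS matches lay in 5.13% and 15.2%, IRF cores in 12.8% and 16.6%, SOX cores in 56.4% and 56.4%, NKX2 matches in 10.3% and 10.9%, TCF matches in 7.69% and 3.36%, and AP-1 matches in 10.3% and 10.5%. Intervals of both tables were counted separately, so an element listed in both conditions counts as 2 here, and no test was made.

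Contact inside the bin of a gene start was often equal to that of a neighbouring bin. With 1 or both neighbouring bins listed, it equalled a listed one for 2048 of 3090 genes in Ctr-OPCs and 2139 of 3209 in IFN-γ-OPCs. Of 587 genes in Ctr-OPCs with listed elements in the bin of the start and in both bins beside it, 586 had a contact in the bin of the start equal to the higher neighbour, within 1.5e-06. In IFN-γ-OPCs this held for 613 of 613 genes. Among the factors with 1 listed neighbouring bin, the contact was the same in both bins for Myrf (0.0681 in Ctr-OPCs, 0.0479 with IFN-γ), for Tcf7l2 in Ctr-OPCs (0.0357) and for Nkx6-2 with IFN-γ (0.0722). It was higher in the bin of the start for Nkx6-2 in Ctr-OPCs, 0.0702 against 0.0367, and for Tcf7l2 with IFN-γ, 0.0243 against 0.0204. For Zfp488 no neighbouring bin was listed in IFN-γ-OPCs, so the contact of the bin that held the element in Ctr-OPCs is not known there.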
